A study of Mus musculus with 12 samples.

Results

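Interferon-induced genes are the genes that a cell turns on after interferon has bound its receptor, and 39 of them were followed here through the fundic mucosa, the part of the mouse stomach lining that secretes acid. The 39 were taken by gene symbol from a fixed list. A gene counted as measured if the array held a probe set (a group of short probes for 1 transcript) annotated to that symbol alone, and the probe set with the highest mean over the 12 arrays stood for it. By this rule 34 of the 39 were measured, out of 12393 genes with such a probe set in all. Isg15 and Tgtp1 were represented only by probe sets annotated to several genes, so no value is given for them, and no probe set of Ddx58, Ifi44 or Xaf1 was analysed here.

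RNA from mucosal scrapings was hybridised to 12 single-channel arrays, 3 for each of 4 groups. The gastrin-infused group were gastrin knockout mice given gastrin for 1 week. The double knockouts lacked both gastrin and cholecystokinin (CCK) and were not described as infused. The saline-infused group were gastrin knockout mice given saline for 1 week, described as males of 2 months. The wild-type mice were not described as infused, and each wild-type sample pooled about 2 to 4 animals. Age and sex are labelled only for the saline-infused group, so neither is known to match in any comparison, gastrin against saline infusion included. Infusion, age and sex cannot be told apart from genotype where an infused group is set against an uninfused one. All groups but wild type lack gastrin of their own. Whether the 3 samples in each group are separate animals is not labelled, so the p-values measure only the spread between samples, which may be technical. Values are deposited intensities in arbitrary units, compared within a probe set and never between probe sets.

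Type I and type II interferons signal through separate cell-surface receptors and Janus kinases to transcription factors of the STAT and IRF families. A complex of STAT proteins with Irf9 binds the interferon-stimulated response element, and STAT dimers bind the gamma-activated site. The induced genes encode direct inhibitors of viruses, sensors of foreign nucleic acid, GTPases that attack the vacuoles of intracellular microbes, and factors that amplify or end the response. Many are transcribed at a low level in tissue without infection.

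Promoter sequences of 4 of the 5 members that passed a test below, Gbp2, Rsad2, Irf1 and Ifih1, are shown. Mx1, the fifth, is named only, because the sequence source held no promoter window for it. Sequences are from RefSeq (GRCm38.p6), which held a promoter window from 250 bases before to 50 bases after the annotated start for 26 of the 34 measured members. Each run is written 5′ to 3′ on the strand of the gene. Capitals mark the match to the core of the response element (GAAA, any 2 bases, GAAA) or to the gamma-activated site (TTC, any 3 bases, GAA), read on either strand. The run for Gbp2 is chr3:142620413-142620662 on the plus strand, with the response-element letters 59 to 50 bases before the start (positions -59 to -50). That for Rsad2 is chr12:26456453-26456702 on the minus strand, with the letters at -120 to -111. That for Irf1 is chr11:53769764-53770013 on the plus strand, with the gamma-activated site letters at -90 to -82. Only 30 bases are shown for Ifih1, chr2:62646206-62646235 on the minus strand, since its match lies after the start, at 32 to 41.
Gbp2: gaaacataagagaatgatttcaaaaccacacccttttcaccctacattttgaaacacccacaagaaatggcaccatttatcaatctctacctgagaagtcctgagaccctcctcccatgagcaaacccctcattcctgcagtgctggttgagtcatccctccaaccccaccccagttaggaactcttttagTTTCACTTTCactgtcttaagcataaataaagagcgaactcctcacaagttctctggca
Rsad2: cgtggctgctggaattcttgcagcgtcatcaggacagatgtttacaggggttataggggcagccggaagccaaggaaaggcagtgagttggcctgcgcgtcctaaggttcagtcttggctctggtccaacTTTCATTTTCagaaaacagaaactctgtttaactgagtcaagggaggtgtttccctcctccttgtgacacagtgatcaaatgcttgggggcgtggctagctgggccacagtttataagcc
Irf1: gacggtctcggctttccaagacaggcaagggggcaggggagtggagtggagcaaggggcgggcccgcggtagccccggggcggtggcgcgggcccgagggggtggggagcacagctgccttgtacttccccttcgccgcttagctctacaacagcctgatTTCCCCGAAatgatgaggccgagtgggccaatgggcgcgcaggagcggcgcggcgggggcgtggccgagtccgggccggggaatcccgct
Ifih1: gagaagagaatcGAAACAGAAAccgatctg

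The response-element letters stood in 15 of the 26 member windows (57.7%) and in 3.49% of the windows of 27025 genes. The letters of the gamma-activated site stood in 8 of the 26 (30.8%), against 8.43% of all genes, and the 2 motifs overlapped in Bst2 and Ifitm3. A motif match is a description of the letters in these windows and not evidence of binding. Ifit1 and Ifit3, which encode inhibitors of viral RNA translation, each held a pair of response-element matches. So did Bst2, Gbp3, Ifitm3, Irgm1 and Oas1a. Those of Ifit1 were at -104 to -95 and -85 to -76, and those of Ifit3 at -156 to -147 and -122 to -113. Several members are neighbours in the genome. Rsad2 and Cmpk2 lie side by side on chromosome 12, Ifit2 and Ifit3 on chromosome 19, and Oasl1 and Oasl2 on chromosome 5, with 0 protein-coding genes between the members of each pair.

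**Figure D1:**
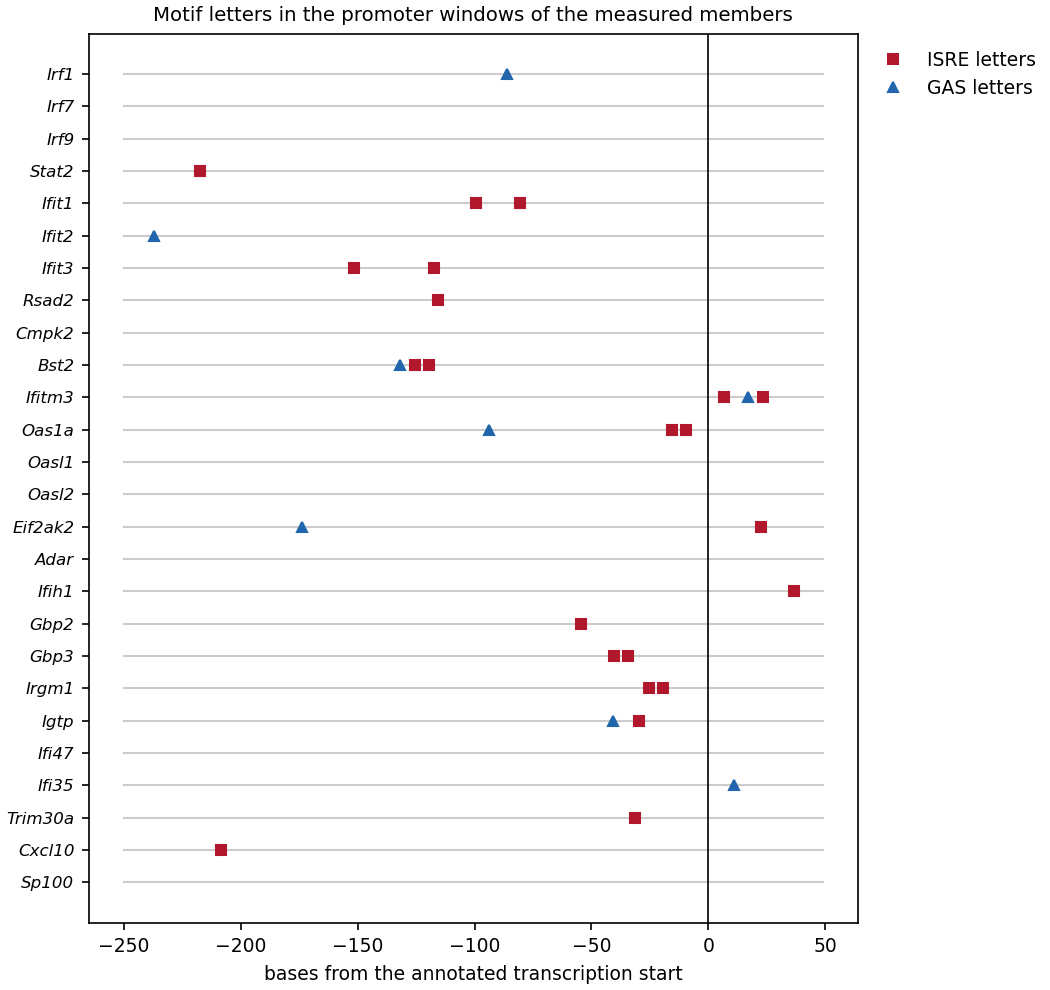
Positions of the response-element and gamma-activated site letters in the promoter windows of members, against the distance in bases from the annotated start. The matches in Gbp2, Rsad2 and Irf1 lie before the start at -59 to -50, -120 to -111 and -90 to -82, and that of Ifih1 lies after it.

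The arrays had medians between 403 and 421, and the samples of a group correlated at 0.955 or higher. Gast, the disrupted gene, read 37 or less on the 9 knockout arrays, against 318 or more on the 3 wild-type arrays. Of the 11 fundic tissue markers measured, none was within the noise on all 12 arrays, though Hdc was above it on 8. They summed to between 456176 and 476327 on the double-knockout arrays, below every other array. There 10 of 11 markers were lower than in wild type (limma, adjusted p under 0.05), and 4.14% of all probe sets were called in either direction. A hybridisation control, BioC, also read lower on the double-knockout arrays, between 1784 and 2307, against 4435 to 7472 on the 9 others. The part of this difference between arrays in the results for the double knockouts was not tested.

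One saline-infused array stood apart for the interferon-induced genes themselves. On saline-infused replicate 1, 26 of the 34 members (76.5%) had their highest value of all 12 arrays, and 7.55% of all probe sets did. The median member there lay 1.16 above the wild-type mean on the log2 scale, against 0.30 and 0.27 on saline-infused replicates 2 and 3. The gastrin-infused arrays lay at -0.40, -0.27 and -0.25 and the double knockouts at -0.05, 0.34 and 0.33. The wild-type arrays lay at 0.02, 0.11 and -0.05 on the same scale. Thus all 3 saline-infused arrays lay above all wild-type arrays and all 3 gastrin-infused arrays below them, and of the double knockouts 2 lay above them and 1 level with the lowest. The counts and medians that use the saline-infused group are therefore also given without replicate 1, as are the values of the members that passed a test, a choice made after seeing the data.

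**Figure D2:**
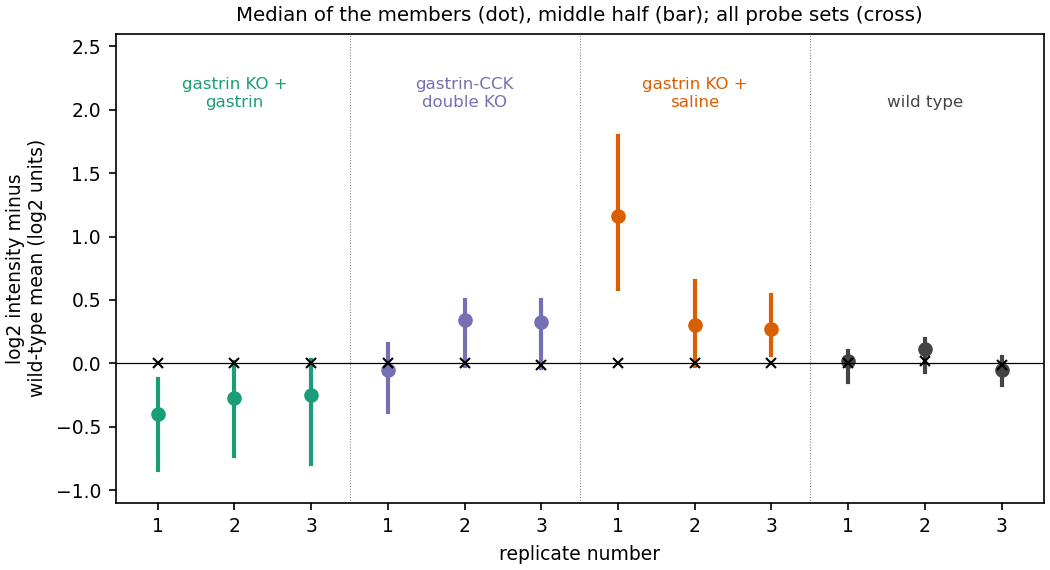
Median log2 difference of the 34 members from their wild-type mean on each of the 12 arrays, by group. The gastrin-infused arrays lie between -0.40 and -0.25, and saline-infused replicate 1 at 1.16 lies above the other 11 arrays.

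Interferon-induced genes read lower in gastrin-infused than in saline-infused gastrin knockouts, 2 groups that differ in their labelled treatment by the peptide infused. Of the 34 members, 32 had a log2 difference below 0 and 24 (70.6%) had groups that did not overlap, with every gastrin-infused array lower. Of all 22626 probe sets tested, 10.3% had groups separated in that direction. The median difference of the members was -0.85 on the log2 scale (middle 50% between -1.58 and -0.31), and that of all probe sets was 0. Rsad2, Ifih1 and Gbp2 fell past the threshold, an adjusted p under 0.05 in limma over all probe sets. They were 8.82% of the members, and 0.473% of all probe sets were called lower in this comparison. At an unadjusted p under 0.05, 21 members were lower and 0 higher, against 16% of all probe sets in either direction. In bulk RNA, fewer cells of a type and less RNA per cell cannot be told apart.

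Without saline-infused replicate 1, 31 of the 34 members still had a difference below 0, the median was -0.60, and 24 had groups that did not overlap with the gastrin-infused arrays lower (14.5% of all probe sets). No member then passed in limma, with 0.301% of all probe sets called in either direction. The difference came closer to 0 for 30 of the 34 members, moved by over 1.5 times for 16, and changed sign for 1, Mx2. The role medians without that array were -1.54 for the effectors, -0.94 for the sensors, -0.89 for the GTPases and -0.48 for the signalling factors. They were -0.47 for the double-stranded RNA response genes and -0.16 for the last 5 members described. All 3 calls were lost whichever of the 6 arrays of the 2 groups was left out, with adjusted p between 0.0502 and 0.0897 for Rsad2, 0.0566 and 0.107 for Ifih1, and 0.0584 and 0.104 for Gbp2.

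**Figure D3:**
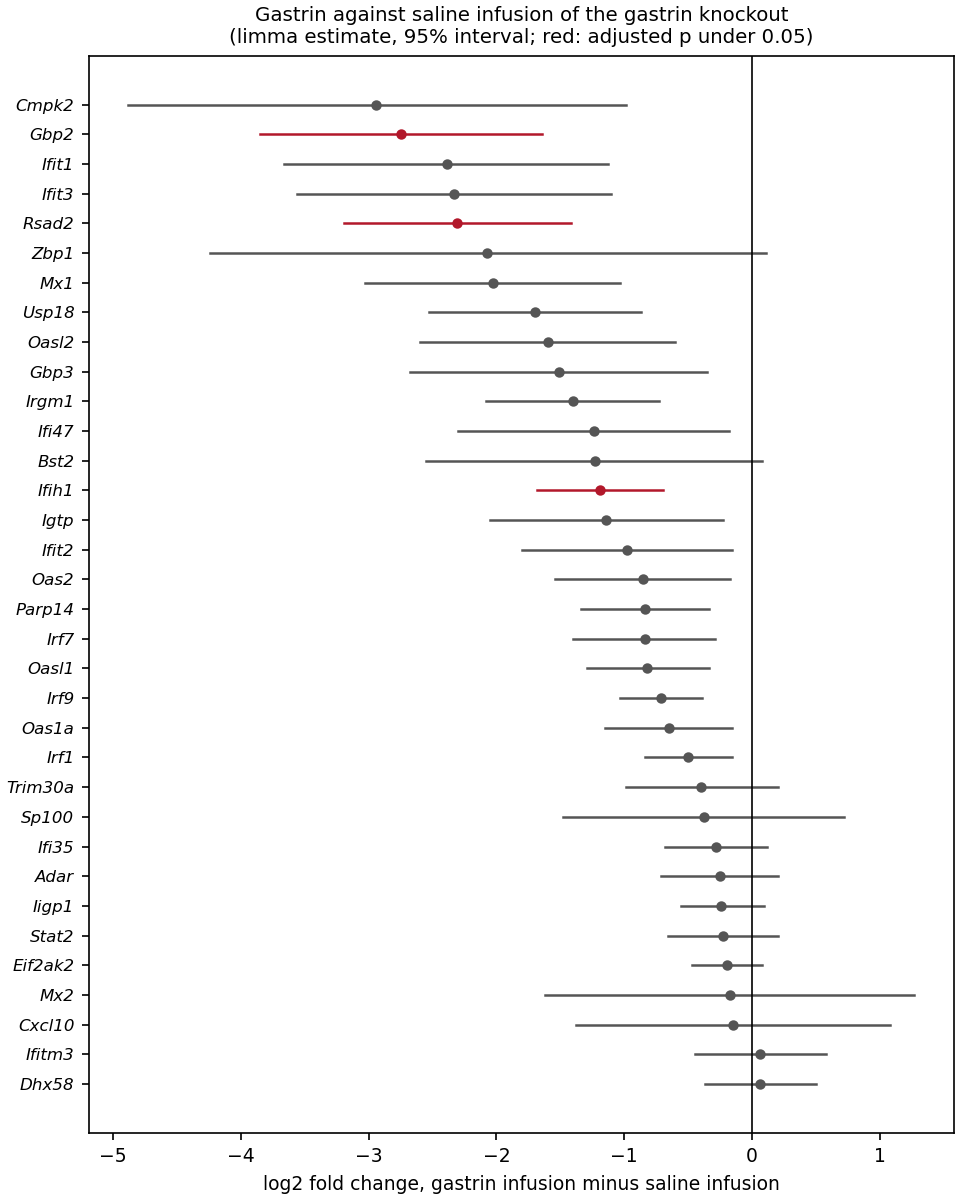
Log2 difference of the gastrin-infused minus the saline-infused gastrin knockouts for each measured member, with its 95% confidence interval, in order of the difference. Of the 34 points 32 lie left of 0, and the 3 that passed the test are Rsad2 at -2.31, Ifih1 at -1.19 and Gbp2 at -2.75.

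Rsad2 encodes viperin, a radical-SAM enzyme that makes a chain-terminating nucleotide. Its probe set read 780, 1129 and 970 in gastrin-infused knockouts, 1588, 2783 and 1533 in double knockouts, 9059, 3665 and 3107 in saline-infused knockouts, and 1589, 1791 and 1346 in wild type. The gastrin-infused arrays were the 3 lowest of the 12 and the saline-infused the 3 highest, and the double knockouts overlapped wild type. Gastrin-infused knockouts were 4.94-fold lower than saline-infused ones, a log2 difference of -2.31 ± 0.39 (SE, limma adjusted p = 0.0346), and without saline-infused replicate 1 the difference was -1.83 (adjusted p = 0.0502). Saline-infused knockouts differed from wild type by 1.58 ± 0.39 (adjusted p = 0.0782), or by 1.11 without that array (adjusted p = 0.127). The gene had 3 probe sets. A second also fell with gastrin, by 2.83 on the log2 scale (adjusted p = 0.0412), and the third differed by -0.69 (adjusted p = 0.212).

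Cmpk2, the nucleotide kinase next to Rsad2, can supply the triphosphate that viperin uses. It read 13, 89 and 187 in gastrin-infused knockouts, 119, 284 and 297 in double knockouts, 1097, 445 and 244 in saline-infused knockouts, and 165, 190 and 186 in wild type. The saline-infused arrays lay above all gastrin-infused and wild-type arrays, but the lowest gastrin-infused value was under the floor of 16 applied before the log. The gastrin minus saline difference was the widest of the list at -2.94 ± 0.86 on the log2 scale and did not pass (adjusted p = 0.137).

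Ifih1 encodes MDA5, a cytoplasmic sensor of long double-stranded RNA. It read 688, 970 and 797 in gastrin-infused knockouts, 1330, 1773 and 1506 in double knockouts, 2605, 1656 and 1466 in saline-infused knockouts, and 1175, 1292 and 1135 in wild type. Every gastrin-infused array was below every wild-type array, and every saline-infused and double-knockout array was above them. The gastrin-infused group was 2.28-fold lower than the saline-infused group, at -1.19 ± 0.22 on the log2 scale (adjusted p = 0.0402), and at -0.94 without saline-infused replicate 1 (adjusted p = 0.0778). Against wild type the differences were -0.57 for gastrin-infused knockouts (adjusted p = 0.364), 0.35 for double knockouts (adjusted p = 0.431) and 0.63 for saline-infused knockouts (adjusted p = 0.175), the last being 0.38 without that array.

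Gbp2 encodes a guanylate-binding protein, a large GTPase induced most strongly by interferon gamma. The probe set that stood for it read 67, 19 and 61 in gastrin-infused knockouts, 190, 137 and 161 in double knockouts, 468, 190 and 265 in saline-infused knockouts, and 104, 156 and 107 in wild type. The gastrin-infused arrays lay within the noise, taken for each array as the size of the value at percentile 1, which is below 0. It was between 67 and 96 over the 12 arrays. With every saline-infused array included, Gbp2 was therefore at least 3.23-fold lower with gastrin than with saline. The fitted log2 difference was -2.75 ± 0.49 (limma, adjusted p = 0.0388). Without saline-infused replicate 1, the array that read 468, it was -2.39 (adjusted p = 0.104), and no bound is given. The "_x" in the name of this probe set marks probes that can also match related transcripts, and the guanylate-binding proteins are a family of close copies. The other Gbp2 probe set read 72, 98 and 59 in gastrin-infused knockouts, 136, 137 and 143 in double knockouts, 487, 194 and 252 in saline-infused knockouts, and 93, 122 and 66 in wild type. On it, Gbp2 fell with gastrin (adjusted p = 0.0388) and rose in saline-infused knockouts against wild type, by 1.66 on the log2 scale (adjusted p = 0.0483). Its gastrin-infused and wild-type values lay near the noise, and its highest value, 487, was on saline-infused replicate 1. No result without that array is given for this probe set.

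**Figure D4:**
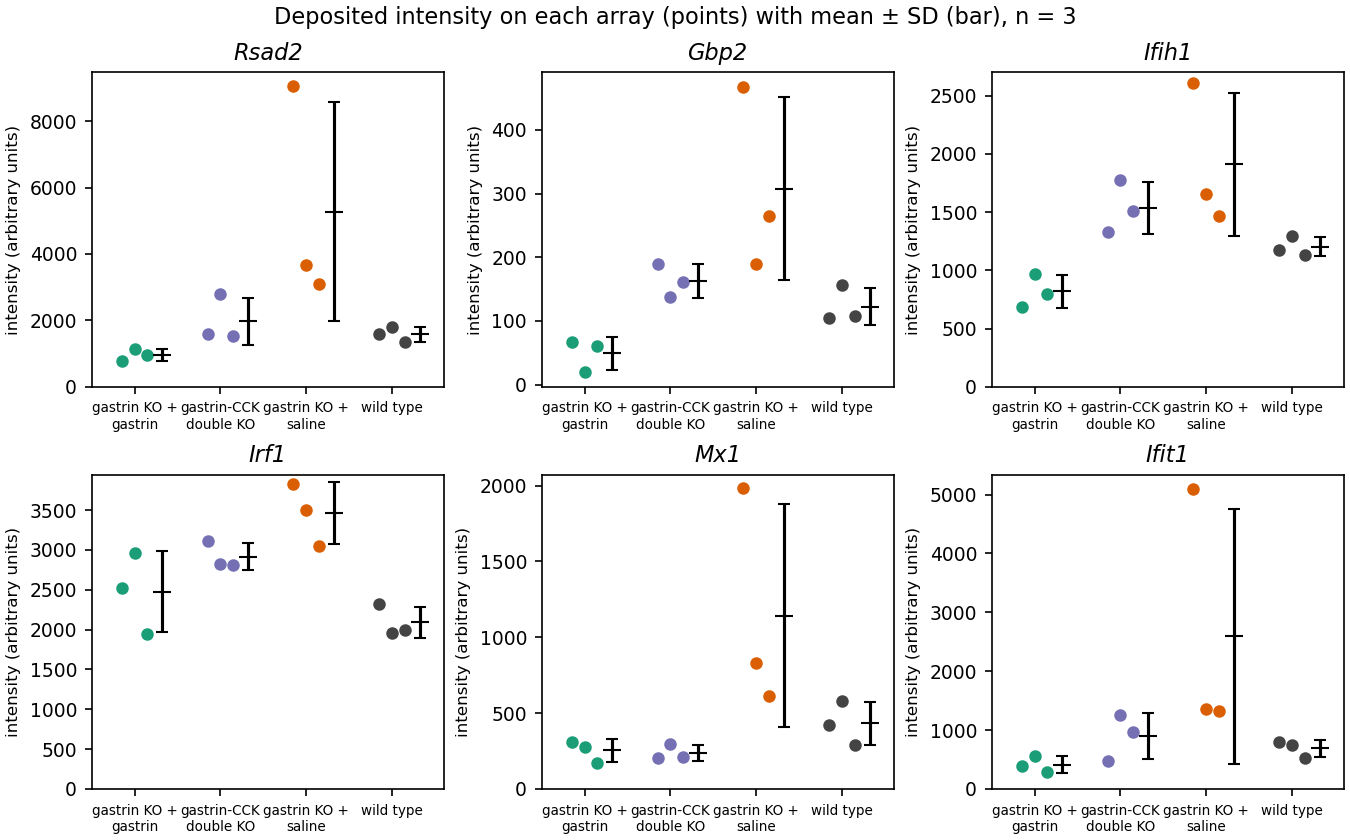
Deposited intensity (linear axis, arbitrary units) of members on each array, with groups in the order gastrin-infused knockout, double knockout, saline-infused knockout and wild type. For Rsad2 the gastrin-infused points lie between 780 and 1129, below all 9 others, and the highest point is 9059 on saline-infused replicate 1.

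Of the 9 direct antiviral effectors measured, 8 were below 0 for gastrin against saline, with a median of -2.03 on the log2 scale, and Rsad2 was the only one of them to pass. Ifit1 read 395, 564 and 281 in gastrin-infused knockouts, 477, 1259 and 968 in double knockouts, 5099, 1355 and 1316 in saline-infused knockouts, and 806, 744 and 529 in wild type. The saline-infused arrays were again the 3 highest, the first of them by far, and the double knockouts spanned the wild-type values. The Ifit1 difference of gastrin from saline was -2.39 ± 0.56 (adjusted p = 0.0766), and that of saline-infused knockouts from wild type was 1.61 ± 0.56 (adjusted p = 0.176). With saline-infused replicate 1 left out these were -1.75 (adjusted p = 0.141) and 0.97 (adjusted p = 0.342). Ifit3 averaged 121 ± 58.2 in gastrin-infused and 697 ± 579 in saline-infused knockouts (SD, n = 3 each). The Ifit3 difference was -2.33 (adjusted p = 0.0766), or -1.69 without saline-infused replicate 1 (adjusted p = 0.137). Ifit2 was within the noise on all 12 arrays, so nothing can be said of its level.

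Mx1 encodes a dynamin-like GTPase that blocks influenza virus. It read 310, 280 and 171 in gastrin-infused knockouts, 201, 297 and 211 in double knockouts, 1983, 832 and 611 in saline-infused knockouts, and 424, 579 and 293 in wild type. Both the gastrin-infused and the double-knockout arrays lay below all saline-infused arrays. Double knockouts were 4.31-fold lower than saline-infused knockouts, at -2.11 ± 0.44 on the log2 scale (adjusted p = 0.0288), the only member to pass between those groups. The gastrin minus saline difference was -2.03 ± 0.44 (adjusted p = 0.0658), or -1.54 without saline-infused replicate 1 (adjusted p = 0.124). Its paralogue Mx2 read 135, 193 and 273 in gastrin-infused knockouts, 41, 112 and 173 in double knockouts, 397, 296 and 87 in saline-infused knockouts, and 187, 144 and 190 in wild type. All 4 groups of Mx2 overlapped. Bst2, which encodes the virus-tethering protein tetherin, lay within the noise in the gastrin-infused group and averaged 218 ± 166 in the saline-infused group. The saline-infused arrays read 409, 123 and 121, and the wild-type arrays 145, 174 and 189. Without saline-infused replicate 1, Bst2 differed by -0.46 on the log2 scale between saline-infused knockouts and wild type. Ifitm3, which restricts viral entry, differed by 0.06 between gastrin and saline infusion (95% interval -0.45 to 0.58).

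Among the 4 signalling and transcription factors, all 4 lay below 0 for gastrin against saline with a median of -0.60 on the log2 scale, and 0 passed in limma. Irf1, an activator of interferon and of many induced genes, read 2526, 2956 and 1941 in gastrin-infused knockouts, 3112, 2825 and 2815 in double knockouts, 3825, 3506 and 3055 in saline-infused knockouts, and 2319, 1959 and 1994 in wild type. Every saline-infused array exceeded every wild-type and gastrin-infused array. Irf1 rose 1.65-fold in saline-infused knockouts against wild type, by 0.73 ± 0.15 on the log2 scale (adjusted p = 0.0491). Its gastrin minus saline difference was -0.50 ± 0.15 (adjusted p = 0.15), or -0.42 without saline-infused replicate 1 (adjusted p = 0.336). Irf7, the amplifier of type I interferon output, read 836, 876 and 947 in gastrin-infused knockouts, 973, 1373 and 1410 in double knockouts, 2442, 1340 and 1226 in saline-infused knockouts, and 1131, 1077 and 1158 in wild type. The saline-infused arrays were above and the gastrin-infused arrays below all wild-type arrays, with a difference between them of -0.84 ± 0.24 (adjusted p = 0.133), or -0.53 without saline-infused replicate 1. Irf9, the DNA-binding partner of the STAT proteins, read 335, 279 and 302 in gastrin-infused knockouts, 475, 649 and 662 in double knockouts, 550, 440 and 508 in saline-infused knockouts, and 503, 444 and 460 in wild type. Here the gastrin-infused arrays alone stood apart, below the 9 others, by -0.71 ± 0.14 against saline (adjusted p = 0.0519) and -0.62 ± 0.14 against wild type (adjusted p = 0.182). Stat2 had a gastrin minus saline difference of -0.23 (95% interval -0.66 to 0.20), or -0.10 without that array.

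Usp18 removes the ubiquitin-like protein ISG15 from its targets and damps the type I receptor. It read 360, 407 and 461 in gastrin-infused knockouts, 661, 1044 and 1128 in double knockouts, 2541, 1015 and 893 in saline-infused knockouts, and 818, 888 and 719 in wild type. The gastrin-infused values were below the 9 others. The difference from the saline-infused group was -1.70 ± 0.37 (adjusted p = 0.0645) and from wild type -0.98 ± 0.37 (adjusted p = 0.355). Without saline-infused replicate 1 the former was -1.23 (adjusted p = 0.0809).

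The 6 members grouped as double-stranded RNA response genes all lay below 0 for gastrin against saline. Their median was -0.74 on the log2 scale, with 0 past the test. Oasl2, an oligoadenylate synthetase-like protein, read 205, 436 and 311 in gastrin-infused knockouts, 646, 1093 and 1254 in double knockouts, 1770, 547 and 794 in saline-infused knockouts, and 584, 696 and 592 in wild type. The gastrin-infused arrays were the 3 lowest, and 2 of the 3 double knockouts were well above wild type. The gastrin minus saline difference was -1.60 ± 0.44 (adjusted p = 0.119), or -1.12 without saline-infused replicate 1 (adjusted p = 0.244). Its neighbour Oasl1, which in mice represses translation of Irf7, read 4790, 4028 and 5636 in gastrin-infused knockouts, 4877, 6323 and 3595 in double knockouts, 9694, 8845 and 6927 in saline-infused knockouts, and 5982, 5592 and 5860 in wild type. Here the double knockouts, too, lay below all saline-infused arrays, at -0.81 ± 0.21 (adjusted p = 0.0582), against -0.82 ± 0.21 for gastrin minus saline (adjusted p = 0.0998). Oas1a and Oas2, the synthetases that activate RNase L, differed by -0.65 and -0.85 between gastrin and saline infusion, or by -0.42 and -0.52 without saline-infused replicate 1. Eif2ak2, the kinase PKR, and Adar, the RNA-editing deaminase, were the narrowest of the 6, at -0.20 and -0.25.

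Of the nucleic acid sensors other than Ifih1, Dhx58, which encodes the regulatory RNA helicase LGP2, differed by 0.06 between gastrin and saline infusion (95% interval -0.37 to 0.50). Of its other probe sets, 1 differed by -2.37 with groups that did not overlap (adjusted p = 0.141), its gastrin-infused values lying within the noise. The other differed by -1.69 and was called, but lay within the noise on all 12 arrays, so nothing is drawn from it. Zbp1, a sensor of Z-form nucleic acid that can trigger cell death, read 143, 33 and 103 in gastrin-infused knockouts, 11, 94 and 218 in double knockouts, 615, 272 and 214 in saline-infused knockouts, and 297, 94 and 225 in wild type. Its values spread widely within each group. The gastrin minus saline difference was -2.07 ± 0.96 (adjusted p = 0.34) and the double knockout minus saline difference -2.26 ± 0.96 (adjusted p = 0.215).

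The 6 interferon-induced GTPases also lay below 0 for gastrin against saline, with a median of -1.32. Besides Gbp2, Irgm1, an immunity-related GTPase that regulates autophagy, averaged 238 ± 11.4 in gastrin-infused and 685 ± 352 in saline-infused knockouts (SD, n = 3 each). The Irgm1 difference was -1.40 ± 0.30 (adjusted p = 0.0613), or -1.01 without saline-infused replicate 1 (adjusted p = 0.0723). Ifi47, another member of that GTPase family, read 139, 459 and 242 in gastrin-infused knockouts, 327, 568 and 483 in double knockouts, 1054, 398 and 487 in saline-infused knockouts, and 303, 323 and 251 in wild type. The double-knockout and saline-infused arrays all exceeded the wild-type arrays, while the gastrin-infused arrays overlapped both. The differences for Gbp3 and Igtp were -1.51 and -1.14, or -0.96 and -0.68 without saline-infused replicate 1, and that of Ifi47 was -1.24, or -0.82 without it. Iigp1 was the narrowest of the 6 at -0.24 (95% interval -0.56 to 0.09).

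The last 5 members had a median gastrin minus saline difference of -0.38. Parp14, an ADP-ribosyltransferase, read 643, 581 and 727 in gastrin-infused knockouts, 884, 962 and 1174 in double knockouts, 1698, 968 and 949 in saline-infused knockouts, and 735, 758 and 624 in wild type. Its double-knockout and saline-infused arrays all lay above the wild-type arrays. The gastrin minus saline difference was -0.84 (adjusted p = 0.105), or -0.57 without saline-infused replicate 1 (adjusted p = 0.163). Cxcl10, the chemokine that draws activated T cells, read 269, 160 and 56 in gastrin-infused knockouts, 112, 68 and 112 in double knockouts, 114, 123 and 234 in saline-infused knockouts, and 212, 156 and 116 in wild type. Unlike most members it was not raised on saline-infused replicate 1, and its gastrin minus saline difference was -0.15 ± 0.55 (adjusted p = 0.95), or -0.34 without that array. Ifi35, Trim30a and Sp100 differed by -0.28, -0.40 and -0.38, or by -0.09, -0.13 and -0.16 without saline-infused replicate 1.

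**Figure D5:**
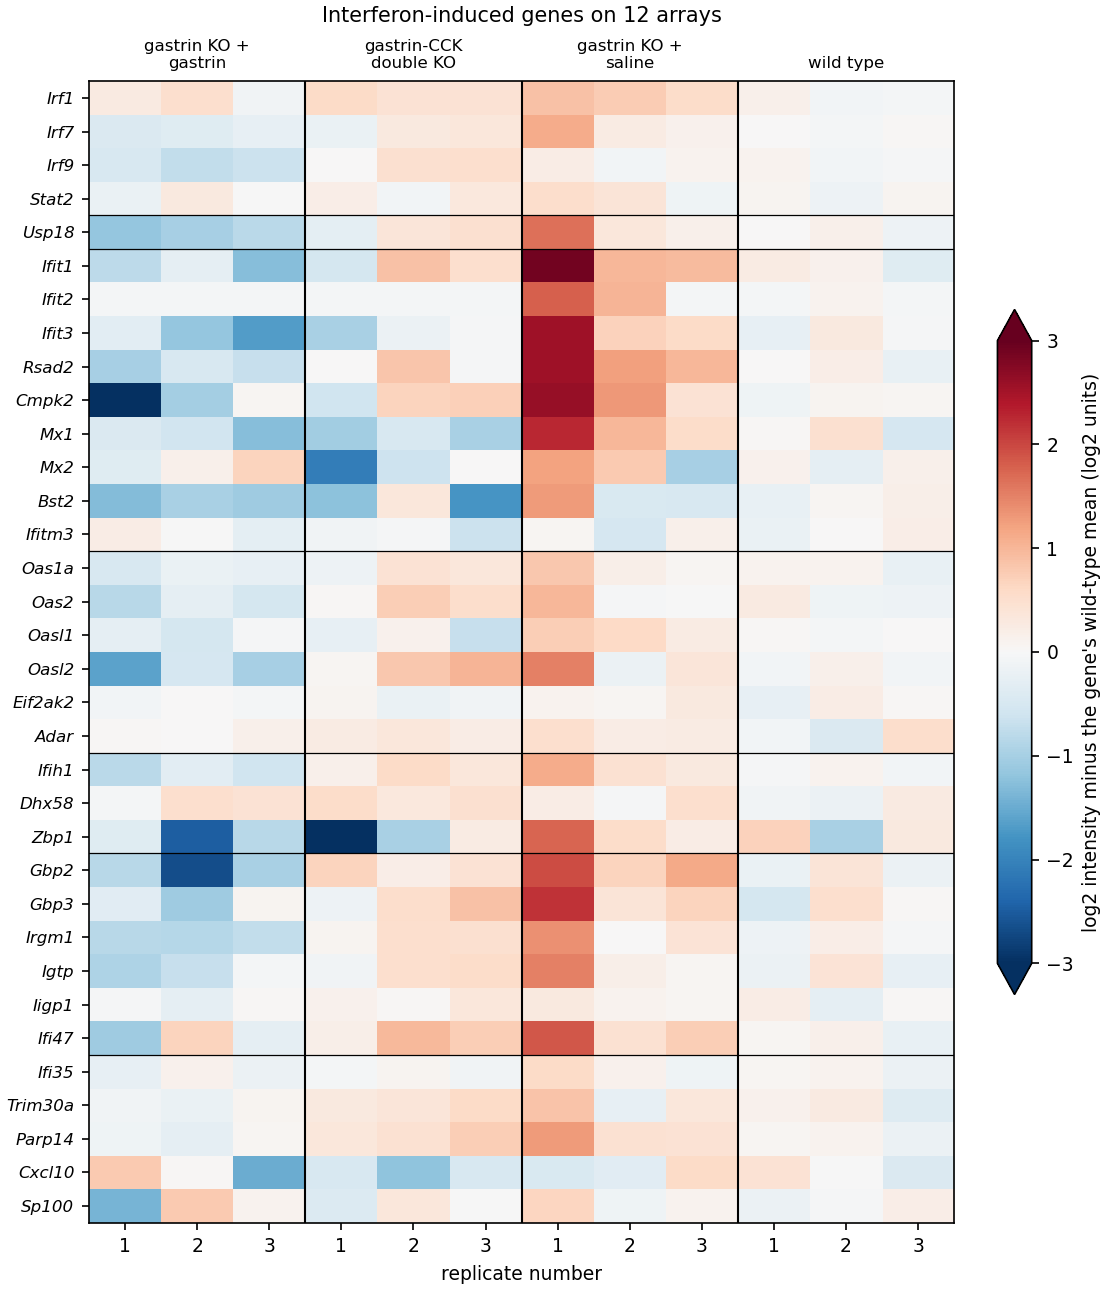
Log2 difference of each measured member (rows, by role) from its wild-type mean on each of the 12 arrays (columns, by group). Saline-infused replicate 1 is the highest array for 26 of the 34 members, and the gastrin-infused replicates 1, 2 and 3 are the lowest for 13, 5 and 6.

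Saline-infused gastrin knockouts read higher than wild type for most members. Of the 34, 32 had a log2 difference above 0 with a median of 0.55 (middle 50% between 0.24 and 0.90), beside 0 for all probe sets. In 13 members (38.2%) every saline-infused array exceeded every wild-type array, as for 10.9% of all probe sets. Irf1 alone rose past the test, or 2.94% of the members, and 0.707% of all probe sets were called higher. At an unadjusted p under 0.05, 10 members were higher and 0 lower, against 17.8% of all probe sets in either direction. Without saline-infused replicate 1, 28 members were above 0 with a median of 0.22. The difference moved by over 1.5 times for 27 of the 34 members and changed sign for 6, and the effector median was 0.64, against 1.27 with all arrays. The groups then did not overlap for 13 members with saline higher (15.4% of all probe sets) and 1 with saline lower (16.7%). No member passed in limma without it (0.548% of all probe sets called in either direction), and Irf1 differed by 0.65 (adjusted p = 0.142). The Irf1 call was also lost when any other single array of the 2 groups was left out, with adjusted p between 0.0685 and 0.142.

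Gastrin-infused gastrin knockouts tended to lie below wild type, with 29 of 34 members under 0 and a median of -0.33 on the log2 scale. None passed in limma, where 0.11% of all probe sets were called in either direction, and 6 members were lower at an unadjusted p under 0.05 (11.6% of all probe sets in either direction). In 11 members (32.4%) every gastrin-infused array was below every wild-type array, as for 9.41% of all probe sets. These were Irf7, Irf9, Usp18, Ifit3, Rsad2, Bst2, Oas2, Oasl2, Ifih1, Gbp2 and Irgm1. The median of the 9 effectors was -0.76 and that of the 4 signalling factors -0.16. This comparison and that with saline share the gastrin-infused arrays, so they are not independent.

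Double knockouts also lack gastrin. Against wild type, 22 of 34 members lay above 0 and the median was 0.24. None passed in limma, where 4.14% of all probe sets were called in either direction, and 4 members were higher at an unadjusted p under 0.05 (19.6% of all probe sets in either direction). Irf1, Ifih1, Dhx58, Ifi47, Trim30a and Parp14 had every double-knockout array above every wild-type array (17.6% of members, 11.6% of all probe sets), and Cxcl10 had every one below (2.94%, 12.9% of all probe sets). By role, the 6 GTPases had a median of 0.39 and all 6 lay above 0, while the 9 effectors had a median of -0.26.

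Set against saline-infused knockouts, double knockouts had 28 of 34 members below 0 and a median of -0.27 on the log2 scale. All 9 effectors lay below 0 with a median of -1.23. The 6 double-stranded RNA response genes had a median of -0.09 and the 6 GTPases -0.33. Whether the roles differed from each other was not tested. Mx1 alone fell past the test, 2.94% of the members, and 2.76% of all probe sets were called lower, so the share of members called was near that of the arrays as a whole. Ifit1, Ifit3, Rsad2, Mx1, Oasl1 and Cxcl10 had groups that did not overlap, the double knockouts lower (17.6%, against 12.7% of all probe sets). Without saline-infused replicate 1, 21 members lay below 0 with a median of -0.05. All 9 effectors were still below 0, with a median of -0.68. The medians of the double-stranded RNA response genes and the GTPases were 0.07 and 0.06. The difference moved by over 1.5 times for 26 of the 34 members and changed sign for 7. The Mx1 call was also lost without saline-infused replicate 2 (adjusted p = 0.0641) and without double-knockout replicates 1 (0.0959) and 3 (0.0743). With saline-infused replicate 1 left out Mx1 differed by -1.62 (adjusted p = 0.0564), and no member passed in limma (2.61% of all probe sets called in either direction).

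No call was made among the interferons, their receptors and the receptor-proximal signalling genes. Of 7 interferon genes, 5 receptor subunits and 10 signalling genes measured, 0 passed in any of the 5 comparisons in limma. Ifnb1, encoding interferon beta, read 161, 80 and 254 in gastrin-infused knockouts, 104, 131 and 242 in double knockouts, 158, 202 and 129 in saline-infused knockouts, and 155, 108 and 150 in wild type. Ifng, encoding interferon gamma, was above the noise on 5 of 12 arrays. In neither were the groups separate. The type I receptor subunits Ifnar1 and Ifnar2 had gastrin minus saline differences of 0.19 ± 0.21 and 0.31 ± 0.33, and the interferon gamma receptor subunits Ifngr1 and Ifngr2 of -0.09 ± 0.12 and -0.28 ± 0.14 (SE, log2 scale). The widest of the 4 in saline-infused knockouts against wild type was Ifnar2 at -0.37 ± 0.33 (adjusted p = 0.605).

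Among 11 measured genes of the sensor pathways upstream of interferon, Tlr4 and Tlr9 were called. Tlr4, the endotoxin receptor, read 451, 455 and 465 in gastrin-infused knockouts, 533, 550 and 479 in double knockouts, 803, 654 and 676 in saline-infused knockouts, and 450, 530 and 508 in wild type. The 3 saline-infused arrays lay above the 9 others. Tlr4 fell with gastrin against saline by 0.63 ± 0.10 on the log2 scale (adjusted p = 0.0276), fell in double against saline-infused knockouts by 0.45 (adjusted p = 0.0334), and rose in saline-infused knockouts against wild type by 0.52 (adjusted p = 0.0364). Tlr9, the receptor for unmethylated CpG DNA, read 573, 774 and 693 in gastrin-infused knockouts, 633, 595 and 652 in double knockouts, 699, 671 and 713 in saline-infused knockouts, and 458, 451 and 427 in wild type. All 9 knockout arrays exceeded wild type, and Tlr9 rose in double knockouts by 0.49 (adjusted p = 0.036) and in saline-infused knockouts by 0.64 (adjusted p = 0.0219), with 0.60 in gastrin-infused knockouts (adjusted p = 0.0744). The other 9 sensor-pathway genes measured did not pass in any comparison. The share of all probe sets called was 0.473% lower for gastrin against saline, 2.76% lower for double against saline-infused knockouts, 0.707% higher for saline-infused knockouts against wild type, and 4.14% in either direction for double knockouts against wild type. When saline-infused replicate 1 was left out Tlr4 differed by -0.54 for gastrin against saline (adjusted p = 0.0659), -0.36 for double against saline-infused knockouts (adjusted p = 0.083) and 0.43 for saline-infused knockouts against wild type (adjusted p = 0.0918). Tlr9 then differed by 0.64 for saline-infused knockouts against wild type (adjusted p = 0.0707), so these 4 calls were lost without that array.

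A further list of interferon-induced genes outside the 39 held 48 measured genes, with medians of -0.43 for gastrin against saline, -0.16 for gastrin-infused knockouts against wild type, -0.09 for double against saline-infused knockouts, 0.08 for double knockouts against wild type and 0.32 for saline-infused knockouts against wild type, beside 0 for all probe sets in each. Gastrin against saline gave 3 lower calls of 48 and 0 higher, where 0.473% of all probe sets were called lower. These were Tap1, the peptide transporter subunit, 2-fold lower (adjusted p = 0.0457), Mndal, a gene of the interferon-inducible p200 family, at -0.80 ± 0.14 (adjusted p = 0.0374), and Psmb8, an immunoproteasome subunit. Psmb8 lay within the noise in the gastrin-infused group and, with every saline-infused array included, was at least 1.86-fold lower (adjusted p = 0.0427). Without saline-infused replicate 1 the median of the 48 was -0.32 and none of these 3 passed, with adjusted p of 0.0809 for Tap1, 0.108 for Mndal and 0.119 for Psmb8. Mndal also rose in saline-infused knockouts against wild type, by 0.80 ± 0.14 (adjusted p = 0.0282), the only one of 48 called there, and by 0.76 without that array (adjusted p = 0.0918). In double knockouts against wild type Mndal rose by 0.78 (adjusted p = 0.0222) and Epsti1 by 0.46 (adjusted p = 0.0291). These 2 of 48 are a share near the 4.14% of all probe sets called in that comparison.

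Markers of other cells moved with some of these groups. The 11 forestomach squamous markers measured summed to 6499, 17983 and 8820 on the gastrin-infused arrays, 33292, 8086 and 34786 on the double-knockout arrays, 33974, 14874 and 38313 on the saline-infused arrays, and 19307, 9955 and 8982 in wild type. Of these markers Ly6d, Sfn, Serpinb5 and Slurp1 fell with gastrin against saline, where 0.473% of all probe sets were called lower. Ly6d rose in saline-infused knockouts against wild type, where 0.707% were called higher. In double against saline-infused knockouts 1 of the markers was called lower, as were 2.76% of all probe sets. The median log2 difference of the 11 had the sign of the members' median in all 5 comparisons, which share groups and are not independent. It was -1.36 for gastrin against saline, -0.37 for gastrin-infused knockouts against wild type, -0.41 for double against saline-infused knockouts, 0.22 for double knockouts against wild type and 0.93 for saline-infused knockouts against wild type. By array the squamous sums and the member medians did not rank alike. The median member lay at 1.16, 0.30 and 0.27 on the saline-infused arrays and at -0.05, 0.34 and 0.33 on the double-knockout arrays, in the order of the sums above. Myeloid markers (10 measured) summed to 4038 to 6746 in gastrin-infused knockouts, 4745 to 6322 in double knockouts, 4900 to 7707 in saline-infused knockouts and 4932 to 5442 in wild type, and of these Cd14 rose in saline-infused knockouts against wild type (adjusted p = 0.0462). Markers of T and natural killer cells (10 measured) summed to 1931 to 2428 in gastrin-infused knockouts, 2070 to 2526 in double knockouts, 1992 to 2427 in saline-infused knockouts and 1732 to 2155 in wild type, with 0 called in limma. The 4 measured markers of B and plasma cells summed to 874 to 1436 in gastrin-infused knockouts, 1351 to 1621 in double knockouts, 1101 to 1854 in saline-infused knockouts and 992 to 1132 in wild type, again with 0 called. For plasmacytoid dendritic cells, the main producers of type I interferon, 5 of 6 listed markers were measured, but 2 of these, Bst2 and Irf7, are members, Ly6d is also a squamous marker, and Siglech was not analysed here. Their summed level was 3879 to 4668 in gastrin-infused knockouts, 5592 to 7402 in double knockouts, 6956 to 8971 in saline-infused knockouts and 4573 to 5336 in wild type. Within this list Ly6d read 1046 to 1870 in gastrin-infused knockouts, 2077 to 3280 in double knockouts, 3787 to 4627 in saline-infused knockouts and 1698 to 2308 in wild type. Tcf4, a transcription factor of these cells, read 1594 to 1774 in gastrin-infused knockouts, 2380 to 2598 in double knockouts, 1392 to 1554 in saline-infused knockouts and 1387 to 2092 in wild type. It was called higher in double knockouts than in saline-infused knockouts (adjusted p = 0.0165) and wild type (adjusted p = 0.0493). No marker of these lists was within the noise on all 12 arrays, and the part of these cells in the results was not tested.

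Of the 34 members 25 were above the noise on all 12 arrays. For the 9 members with more than 1 probe set, 9 of 11 further probe sets had the sign of the main one for gastrin against saline, 10 of 11 for saline-infused knockouts against wild type, and 4 of 11 for double knockouts against wild type. Members whose promoter window held the response-element letters had a median gastrin minus saline difference of -1.19 (n = 15) and those without it -0.82 (n = 11). For the letters of the gamma-activated site the medians were -0.57 with them (n = 8) and -1.21 without (n = 18). Both are descriptions with no test.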

How the data were processed

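Total RNA from fundic mucosal scrapings (about 1 µg a sample, per the labels) was measured on 12 single-channel arrays in 4 groups of 3. The deposited table gives the authors' processed value of each probe set as an intensity on a linear scale, in whole numbers, some below 0. The scaling, the background treatment and the software behind it are not given in the sources used. The 64 control probe sets were taken out, and 22626 were tested. The annotation table named a single gene for 20380 of them and several genes for 691, and did not list 1555. The symbols of all 45 probe sets of members matched the RefSeq gene table (GRCm38.p6).

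A floor of 16 was set before taking log2, with no further scaling. A mean per group was fitted over all 12 arrays in limma 3.58.1 (R 4.3.3, with 8 residual and 1.10 prior degrees of freedom), and 5 comparisons were contrasts, with Benjamini-Hochberg adjustment over the 22626 probe sets and a threshold of 0.05. For a group within the noise a bound on the fold change is given, computed from the noise level. The number of arrays limits the precision. The members and lists were chosen with earlier results of these data known.

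Values on every array are given for members past a test and for the member with the widest difference of each role in each comparison. Of the other pathway genes those past a test are named, with interferon beta and gamma and their receptors whatever the result. Sequences are of 4 of the 5 members past a test. Alternatives were quantile normalization, centring, floors of 1 and 64, a filter on dim probe sets, the replicate number as a block, the Gapdh 3′ to 5′ ratio as a covariate, the 6 arrays compared, a second probe set and leaving out each array. Plots used matplotlib 3.10.9 (Python 3.11.15).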

Additional observations from a re-analysis of the deposited data

Results flagged for a closer look

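Mx1, the influenza-blocking GTPase, stood out because the 2 gastrin-free groups differed by a test of the difference itself. It averaged 236 ± 52.8 in double knockouts and 1140 ± 737 in saline-infused gastrin knockouts (SD, n = 3 each), a log2 difference of -2.11 ± 0.44 (limma, adjusted p = 0.0288). Against wild type, the difference was -0.84 for double knockouts (adjusted p = 0.344) and 1.27 for saline-infused knockouts (adjusted p = 0.178). Without saline-infused replicate 1 the 2 gastrin-free groups differed by -1.62 (adjusted p = 0.0564), and saline-infused knockouts differed from wild type by 0.78 (adjusted p = 0.353). As 1 of 34 members Mx1 is 2.94% of the list, near the 2.76% of all probe sets called lower. All 3 double-knockout arrays lay below all 3 saline-infused arrays. The double knockouts were not described as infused, so infusion and genotype cannot be told apart here. The double-knockout arrays also stood apart in the BioC control and in the sum of fundic markers, and the part of this in the result was not tested.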

How the results depend on the processing

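The number of members past the test depended on the setting, and the medians of the members kept their sign under every setting tried, the medians having been added after seeing the data. For gastrin against saline infusion the 3 calls became 6 with quantile normalization (Irf9, Usp18, Rsad2, Ifih1, Gbp2 and Irgm1), 11 of the 21 members kept by the filter on dim probe sets (6.23% of all probe sets kept), 1 with the Gapdh ratio as a covariate (Rsad2), 1 of 9 on second probe sets (Gbp2), and 0 with only the 6 arrays compared. Leaving out each array gave between 0 and 1, none of them Rsad2, Ifih1 or Gbp2. With the replicate number as a block it gave 0, but same-numbered samples did not vary together (correlations of deviations between -0.12 and 0.20), so the numbers are not taken to pair the samples. For saline-infused knockouts against wild type the 1 call became 3 with the filter (Irf1, Rsad2 and Parp14, with 7.31% of all probe sets). It became 0 with centring, with a floor of 1, with the replicate block, with the Gapdh ratio and with only the 6 arrays, and between 0 and 1 when each array was left out, the 1 being Ifit2, which is within the noise. The median there was 0.22 to 0.69 with each array left out. For double against saline-infused knockouts the 1 call became 2 with quantile normalization (Mx1 and Oasl1), 3 with the filter (Rsad2, Mx1 and Oasl1, with 16.1% of all probe sets), 0 with only the 6 arrays and 0 on second probe sets, between 0 and 2 with each array left out, and 1 with the replicate block. The median on second probe sets was -0.6. Cxcl10 reversed to 0.41 in gastrin-infused knockouts against wild type without gastrin-infused replicate 3 (lowest -0.73, without replicate 1), and Zbp1 to 0.1 in double knockouts against wild type on its second probe set. The other 2 comparisons gave 0 member calls under each of these settings. The filter leaves 11313 probe sets to adjust over, and 6 arrays leave fewer samples for the spread. The cause of the other changes was not tested. Probe sets within the noise limit what can be said of Ifit2, Bst2 and Gbp2. Single values under the floor of 16 also limit what can be said of Cmpk2 and Zbp1.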
